A study of Mus musculus with 9 samples.

Results

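Gene expression in the cell fraction enriched from Hepa1-6 tumours was compared with expression in blood drawn from the same mice on the same day. The comparison used 6 of the 9 samples of the series, chosen by their titles: 3 of the tumour-infiltrating cell fraction at day 10 (TIC fraction) and 3 of blood at day 10. Each group held 1 sample from each of 3 female athymic BALB/c mice, numbered 832, 833 and 834, so the replicates were separate animals and the groups were paired by mouse. Athymic mice lack a thymus and make few T cells, while their B cells, NK cells and myeloid cells remain. All 3 mice carried tumours grown under the skin from Hepa1-6, a mouse hepatoma cell line, injected 10 days before. The day 0 blood of the same mice was taken before the injection. It entered the choice of probes, the scaling between arrays and the estimate of the spread, but was not a side of the comparison.

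Per the labels' protocols, the tumours were ground, a fraction enriched in infiltrating inflammatory cells was taken, and its RNA was extracted with a microRNA isolation kit. Blood RNA was extracted with a kit made for blood. Tissue, RNA extraction and group therefore cannot be told apart. The titles and the tissue label call the 3 tumour samples infiltrating cells, while another label field calls their source blood. Each sample was labelled with Cy5 and hybridised to a two-colour Agilent mouse array together with a Cy3-labelled reference made from the blood of a C57Bl/6 female that had no treatment. The dyes were not swapped. A value below is a log2 ratio of sample over reference, and a difference is the TIC fraction minus day 10 blood, with the SE of the limma fit.

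A tumour holds cancer cells, blood vessels, connective tissue and immune cells, and an enriched fraction of it can still contain all of these. Whole blood RNA comes from white cells, platelets and young red cells that still carry RNA. Growing cells make ribosomes in the nucleolus, fold and export new proteins through the endoplasmic reticulum, and break down spent proteins in the proteasome. Young red cells instead dismantle their mitochondria and ribosomes, and fill with haemoglobin, whose haem is built around iron.

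The arrays of the 2 groups differed in brightness. Between 48.2% and 55.1% of spots were well above background in Cy5 on the TIC arrays, against 14.2% to 21.0% on the day 10 blood arrays, while the Cy3 reference gave 40.2% to 50.4% over all 9 arrays. No spot was saturated. The TIC array of mouse 832 was alone on slide 1, those of mice 833 and 834 shared slide 2 with the day 0 blood of mice 832 and 833, and all day 10 blood arrays lay on slide 3 with the day 0 blood of mouse 834. Across 144 genes with a pair of probes at least 1000 bases apart and bright in both groups, the 3' probe minus the 5' probe had a median log2 ratio of -0.28, 0.12 and -0.27 on the TIC arrays of mice 832, 833 and 834. On the day 10 blood arrays it lay between 0.09 and 0.15. The part of slide, brightness and probe position in the results was not tested, beyond the alternatives given here.

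Of 14253 genes tested, 4908 (34.4%) were higher and 4724 (33.1%) lower in the TIC fraction at a Benjamini-Hochberg adjusted p under 0.05 in limma. In Cy5 alone 4928 (34.6%) were higher and 3311 (23.2%) lower. These counts mix genes measured in both groups with genes visible in the brighter group only. A total of 6681 genes were well above background on all 3 TIC arrays and on no day 10 blood array; the ratio called 3479 of them higher and 615 lower, and Cy5 alone called 3312 higher. The reverse held for 261 genes, of which 260 were lower in the ratio and 260 in Cy5 alone. Throughout, fewer cells of a type and less RNA per cell cannot be told apart in such bulk samples.

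The probe was well above background in Cy5 on all 6 day 10 arrays for 3904 genes, called bright below. Of these, 692 (17.7%) were higher and 2294 (58.8%) lower in the ratio, and 788 (20.2%) higher and 2105 (53.9%) lower in Cy5 alone after quantile normalization. Both measures and all 3 mice gave the same direction for 627 rises (16.1%) and 2034 falls (52.1%). The count of falls depended on the scaling. The median difference of these genes was -1.0 after loess, -1.34 in the deposited ratio, -0.65 with ratios also scaled between arrays and -0.73 in Cy5 alone, but 2.26 when each array was only centred on its median and 1.03 when Cy5 was scaled to its 75th percentile. Of the 2294 falls, 1313 were called rises with median centring.

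A gene was therefore described as higher or lower in all 6 scalings when limma called it the same way in each of these 6 versions. This held for 546 genes that were higher (14.0% of the 3904) and 146 that were lower (3.74%). Each count of members below is to be read against these shares. Median centring by itself called 146 bright genes lower, so this 1 scaling set every count of falls in all 6. No gene among the 692 rises was called lower by limma with median centring. That scaling moved the bright median upward, from -1.0 to 2.26, so it could hardly have called a rise lower. With slide as a block, the fit compares the groups through the day 0 arrays and the TIC array of mouse 832 drops out of it. In that ratio fit 545 of the 546 rises stayed above 0 and 322 were called, and all 146 falls stayed below 0 with 143 called. Requiring all 6 scalings with the slide block left 126 genes higher and 148 lower.

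**Figure D1:**
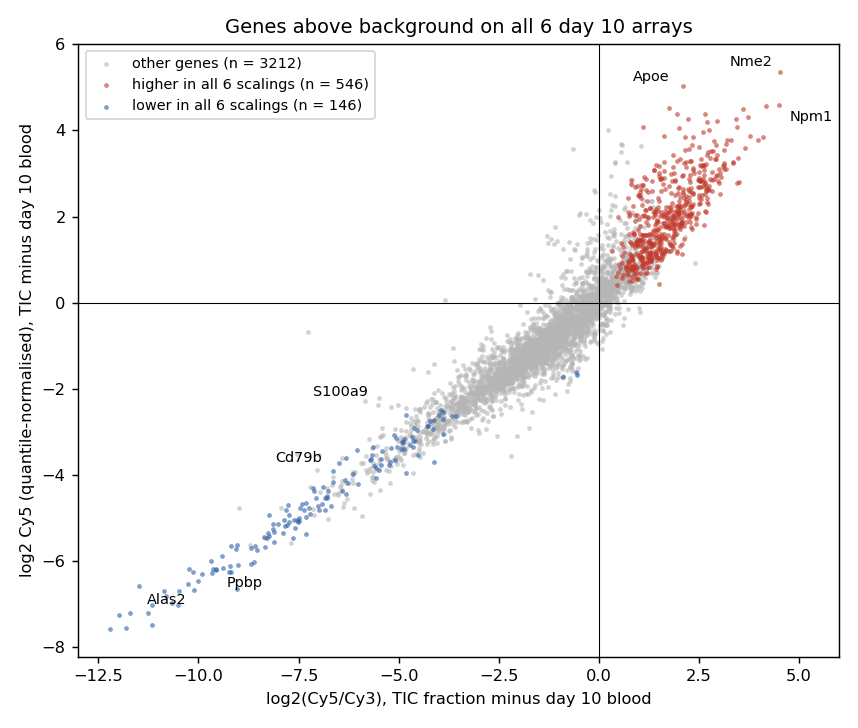
Each point is 1 of the 3904 genes above background on all 6 day 10 arrays, with the difference in log2(Cy5/Cy3) on the x axis and in quantile-normalised log2 Cy5 on the y axis (TIC fraction minus day 10 blood). The 546 genes higher in all 6 scalings (red) lie at the upper right with Nme2 and Npm1 at the end, and the 146 lower in all 6 (blue) mostly at the lower left with Alas2 and Ppbp.

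Genes of the cytosolic ribosome were higher in the TIC fraction. In all 6 scalings 21 of 30 bright members of the large subunit and 17 of 23 of the small subunit were higher, and their median differences were 1.25 and 1.75 in the ratio and 2.87 and 2.93 in Cy5. Rpl23 and Rps15 encode proteins of the large and the small subunit. Rpl23 lay at -1.17, -1.07 and -1.22 in the blood of mice 832, 833 and 834 and at 1.29, 0.94 and 0.99 in their TIC fraction, a difference of 2.22 ± 0.20 (limma adjusted p = 2.28e-05). Rps15 lay at -1.75, -1.44 and -1.80 in blood and at 0.97, 0.71 and 0.98 in the TIC fraction, a difference of 2.55 ± 0.16 (limma adjusted p = 3.73e-06). For both genes all TIC values were above all blood values, by more than the spread between mice.

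The ratio was often smaller than the difference in Cy5. Rpl26 differed by 1.76 in the ratio and 4.52 in Cy5, and Rps18 by 2.01 and 4.07. Rps18 had 0.38 at its other probe and lost its call with slide as a block. Of the large subunit, 3 bright members were lower by the ratio. Rpl21 differed by -2.35 ± 0.26 (limma adjusted p = 7.78e-05), although its other probe gave 0.05 and its direction turned with median centring and with Cy5 at its 75th percentile. The others, named after their values were seen, were Rpl28, which was called higher in Cy5, and Rplp0, which was not called in Cy5. Ribosomal protein genes have many near-identical copies in the genome, so their probes may read more than the named gene.

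Upstream sequences are shown for 3 ribosomal genes that were higher in all 6 scalings, because the core letters bound by ETS-family factors, CCGGAAG, are common before housekeeping genes. Each run is the 200 bases before the gene start (RefSeq, GRCm38.p6), written 5' to 3' on the gene's strand, with CCGGAAG or its reverse complement in capitals. Rps18 lies on the minus strand (chr17:33955666-33955865), Rps3a1 on the minus strand (chr3:86142669-86142868) and Mrpl51, of the mitochondrial ribosome, on the plus strand (chr6:125192000-125192199).
Rps18: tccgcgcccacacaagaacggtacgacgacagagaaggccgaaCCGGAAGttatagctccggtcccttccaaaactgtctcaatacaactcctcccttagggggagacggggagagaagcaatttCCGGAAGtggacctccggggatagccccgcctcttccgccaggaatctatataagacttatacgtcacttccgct
Rps3a1: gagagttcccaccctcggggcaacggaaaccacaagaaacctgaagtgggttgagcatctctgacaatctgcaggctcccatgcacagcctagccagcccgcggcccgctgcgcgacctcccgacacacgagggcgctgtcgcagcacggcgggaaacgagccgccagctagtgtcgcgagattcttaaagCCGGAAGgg
Mrpl51: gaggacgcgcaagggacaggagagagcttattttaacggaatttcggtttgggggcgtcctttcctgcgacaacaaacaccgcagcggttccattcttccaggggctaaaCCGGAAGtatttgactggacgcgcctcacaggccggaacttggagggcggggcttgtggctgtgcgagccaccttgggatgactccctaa
Searched on both strands, these letters were in 2067 of 32851 such windows (6.29%). They were in 14 of the 43 ribosomal and nucleolar genes higher in all 6 scalings that had a sequence, of 56 such genes. A gene can have several windows and counted with a match in any, so this count and the 6.29% of windows are in unlike units. With so many genes lacking a sequence, a share over the group is void. A match is only a match of letters. Rps3a1 was 2.75 ± 0.32 higher (limma adjusted p = 9.79e-05) and Mrpl51 differed by 3.18 in Cy5 (limma adjusted p = 3.9e-06), and in both the TIC values all exceeded the blood values.

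Nucleolar genes, which make and process ribosomal RNA, were mostly dim in blood. Of 45 tested, 29 were above background on all TIC arrays and on no day 10 blood array, against 46.9% of all genes tested. The 29 could pass the filter through the TIC arrays alone, so their count is a description only. Only 4 members were bright. Of these 4, 3 were higher in all 6 scalings. Npm1, a nucleolar chaperone of ribosome assembly, lay at -0.58, -0.34 and -0.80 in blood and at 4.35, 3.22 and 4.20 in the TIC fraction. Its difference was 4.49 ± 0.34 in the ratio (limma adjusted p = 8.48e-06), 4.46 at its other probe and 4.59 in Cy5. It was 5.09 in the deposited ratio and 9.17 with median centring. The size of rises thus depended on the scaling too: with median centring Rpl23 differed by 8.35 and Psmb4 by 7.85. The Npm1 probe lies at chr11:33052565-33052624 of build mm8. Fbl, the methyltransferase of ribosomal RNA, was 2.82 ± 0.22 higher, and Nop56, its partner in the same particle, 1.63 ± 0.16 with 0.60 at its other probe. Nme2, a nucleoside diphosphate kinase, had the largest rise in Cy5 (5.36) among the 546 genes. It lay at -0.83, -0.70 and -1.08 in blood and at 3.88, 3.59 and 3.51 in the TIC fraction, a difference of 4.53 ± 0.20 (limma adjusted p = 1.09e-06).

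Genes of the mitochondrial ribosome were higher too. Of 20 bright members, 15 were higher in all 6 scalings. Mrps34, a small subunit protein, was 1.88 ± 0.12 higher. Mrps2 was the fall among the bright members (-2.72 ± 0.17), and its other probes gave -0.69 to 0.54.

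Among translation factors 12 of 30 bright members were higher in all 6 scalings. Eif3e, a subunit of the initiation factor that brings the small ribosomal subunit to messenger RNA, was 3.47 ± 0.22 higher with 2.81 at its other probe, and Eif4a1, the helicase of initiation, was 2.14 ± 0.16 higher, with 0.69 to 2.50 at its other probes. Eif5 was lower by the ratio (-6.42 ± 0.53) and in Cy5 (-4.14), but its call was lost with median centring. Its other probes gave -5.19 to -0.58. Spliceosome genes were higher in all 6 scalings for 7 of 18, with Snrpc of the U1 particle at 2.12 ± 0.16. RNA polymerase II and general transcription factors gave 4 of 12, with the subunit gene Polr2g at 1.90 ± 0.18. Histone and chromatin modifiers gave 1 of 30, below the share over all bright genes.

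**Figure D2:**
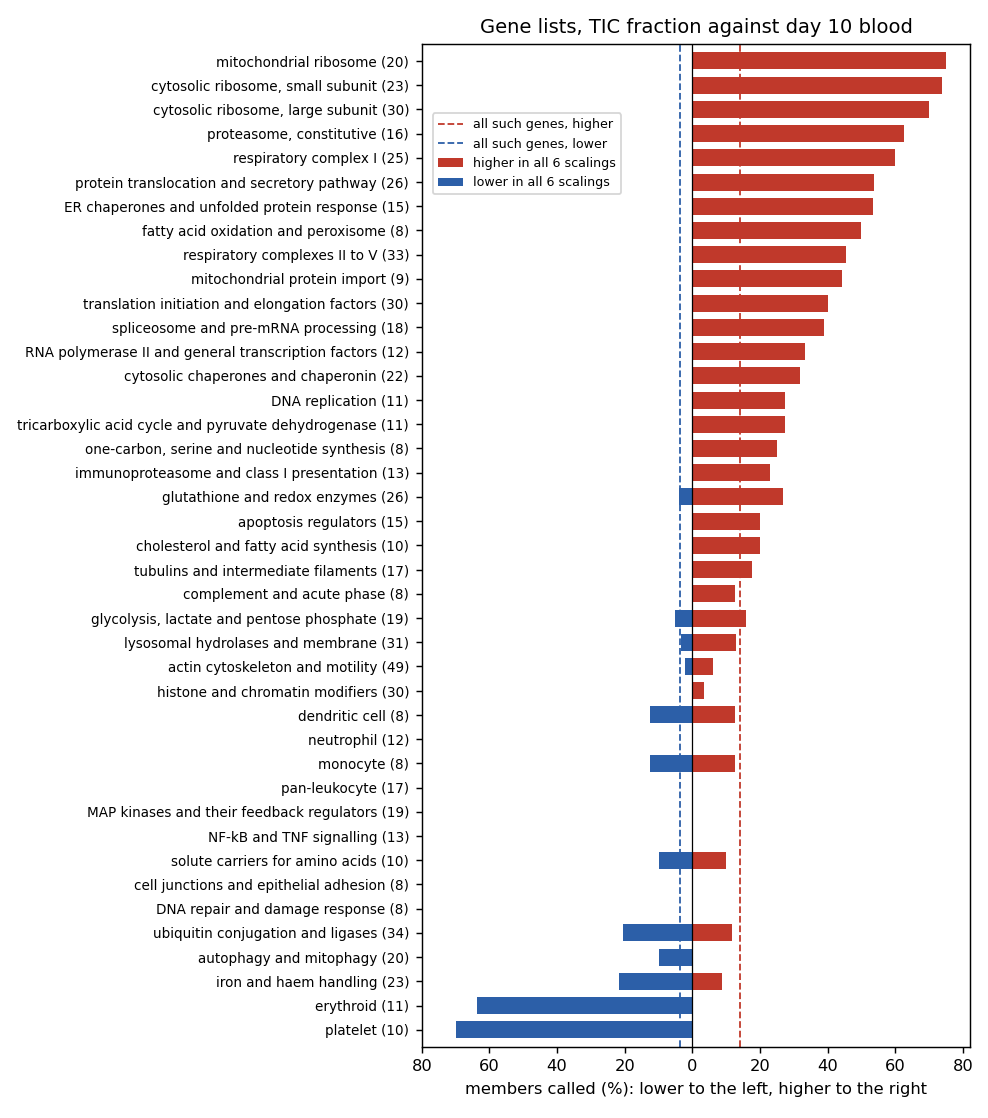
Bars give the percentage of each list's members above background in both groups (number in brackets) that were higher (red, right) or lower (blue, left) in the TIC fraction in all 6 scalings, and the dashed lines give the same over all 3904 such genes, 14.0% and 3.74%. Both ribosomes and the proteasome stand at the top and the erythroid and platelet lists at the bottom.

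The proteasome, the barrel that degrades marked proteins, was higher as well. In all 6 scalings 10 of 16 bright members of the constitutive proteasome were higher. Psmb4, a subunit of the core, lay at -0.85, -0.66 and -0.80 in blood and at 2.45, 2.09 and 2.53 in the TIC fraction (3.13 ± 0.18, limma adjusted p = 2.25e-06). Psma7, a subunit of the outer ring, was 3.02 ± 0.24 higher, and Psmd12 of the regulatory cap 3.12 ± 0.21, with 1.02 to 1.70 at its other probes. Psmd4, a ubiquitin receptor of the cap, was lower by the ratio (-1.19 ± 0.18), a direction that turned with median centring. The immunoproteasome and antigen presentation list gave 3 of 13, among them Calr and Canx, which are also counted with the endoplasmic reticulum chaperones below.

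Ubiquitin enzymes were split, with 4 of 34 bright members higher and 7 lower in all 6 scalings. The falls included ligases: Marchf2 differed by -8.10 ± 0.28 (from 1.05, 0.96 and 1.38 in blood to -7.44, -6.43 and -7.04 in the TIC fraction), with a Cy5 difference of -5.33. Rnf11 differed by -7.53 ± 0.46 and Trim10, a ligase gene of the red cell lineage, by -6.04 ± 0.30. In the autophagy list 2 of 20 were lower in all 6 scalings. These were Bnip3l, the receptor that removes mitochondria from young red cells, at -9.91 ± 0.53 with -7.50 at its other probe, and Gabarapl2, which coats the forming autophagosome, at -8.27 ± 0.42 with only -1.35 at its other probe. Becn1, which starts autophagosome formation, was lower by the ratio (-4.59 ± 0.30), a call lost with median centring.

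Genes of protein export and folding were often higher. The endoplasmic reticulum chaperone list had 8 of 15 bright members higher in all 6 scalings and the secretory pathway list 14 of 26. Pdia6, which forms disulphide bonds, was 2.20 ± 0.25 higher, with 0.33 to 1.09 at its other probes. Calr and Canx, chaperones of glycoproteins, were 1.45 ± 0.14 and 1.86 ± 0.32 higher. Hspa5, the main chaperone of the compartment, was 1.87 ± 0.24 higher, though this call was lost with slide as a block. Ssr4 of the translocation channel was 2.17 ± 0.22 higher, and Dad1, a subunit of the enzyme that attaches sugar chains, 1.91 ± 0.17. Edem1, which sends misfolded glycoproteins to breakdown, was lower by the ratio (-2.29 ± 0.27) but not called with Cy5 at its 75th percentile. Its other probes gave -1.08 to -0.33.

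Among chaperones outside the endoplasmic reticulum 7 of 22 were higher in all 6 scalings. Hspe1 and Hspd1 form the mitochondrial folding chamber and lie next to each other on chromosome 1. Hspd1 lay at -0.03, -0.07 and -0.14 in blood and at 2.15, 2.61 and 2.09 in the TIC fraction, a difference of 2.36 ± 0.16 (limma adjusted p = 5.28e-06). Hspe1 was 3.96 ± 0.34 higher. Dnajb2 was lower by the ratio (-3.69 ± 0.15), with no call in the median-centred ratio.

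**Figure D3:**
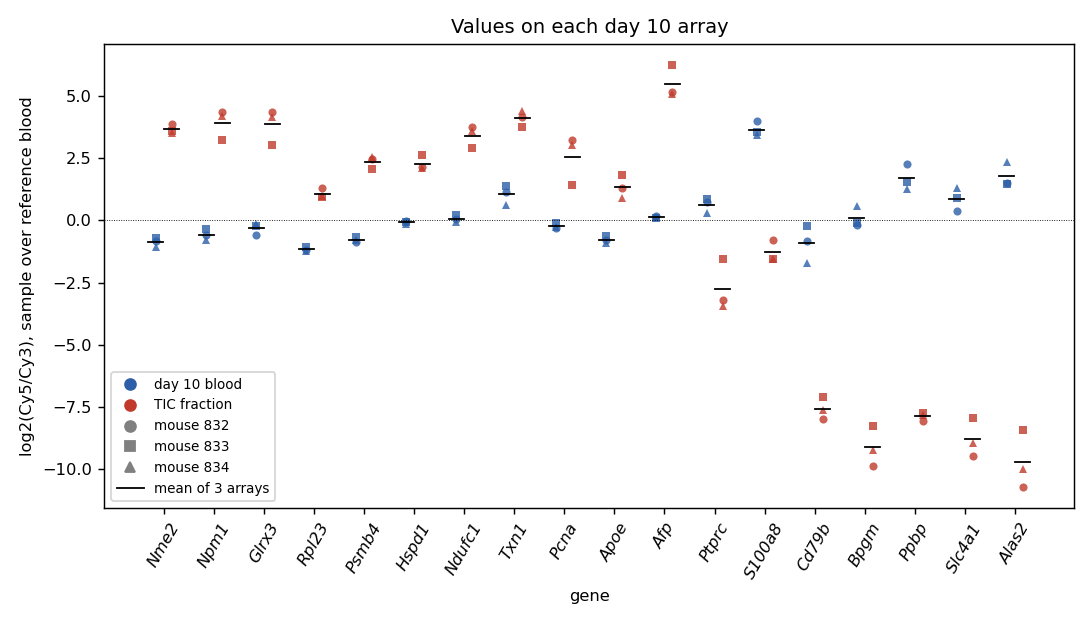
Points give log2(Cy5/Cy3) of 18 genes on each of the 6 day 10 arrays (blue for blood, red for the TIC fraction, a marker shape for each mouse), and the short lines are group means. From Nme2 to Afp all TIC values lie above all blood values, and from Ptprc to Alas2 all lie below.

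Mitochondrial genes rose together with their ribosome. In complex I, the entry point of the respiratory chain, 15 of 25 bright members were higher in all 6 scalings, and in complexes II to V 15 of 33. Ndufc1 of complex I lay at 0.05, 0.24 and -0.07 in blood and at 3.74, 2.90 and 3.59 in the TIC fraction (3.34 ± 0.27, limma adjusted p = 1.05e-05), while its other probes gave 0.35 and 3.02. Sdhd of complex II was 2.30 ± 0.18 higher and Atp5o of the ATP synthase 2.04 ± 0.17. Ndufa1 went the other way in the ratio (-2.72 ± 0.25, and -1.85 at its other probe), but turned with median centring. Mitochondrial import gave 4 of 9, with the carrier Timm13 at 2.49 ± 0.20. The tricarboxylic acid cycle gave 3 of 11: Fh1, which hydrates fumarate, was 1.83 ± 0.19 higher, while Ogdh was lower by the ratio (-2.29 ± 0.17) with no call after median centring. Fatty acid oxidation gave 4 of 8, among them Etfb, an electron carrier, at 2.17 ± 0.13.

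Glycolysis was mixed: 3 of 19 bright members were higher and 1 was lower in all 6 scalings, near the shares over all bright genes. Tpi1, Ldha and Pgam1, enzymes of glycolysis and lactate formation, were higher by 2.62 ± 0.14, 2.25 ± 0.29 and 2.07 ± 0.37. The fall was Bpgm, the red cell enzyme that makes bisphosphoglycerate, at -0.18, -0.11 and 0.57 in blood and -9.84, -8.24 and -9.21 in the TIC fraction (-9.19 ± 0.49, limma adjusted p = 1.9e-06). Slc2a3, a glucose carrier, was lower by the ratio (-3.94 ± 0.40) but not called after median centring.

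Redox genes were higher in all 6 scalings for 7 of 26 and lower for 1. Glrx3, a glutaredoxin that carries iron-sulphur clusters, was at -0.57, -0.23 and -0.12 in blood and at 4.37, 3.04 and 4.16 in the TIC fraction (4.17 ± 0.33, limma adjusted p = 1.1e-05), with 4.22 at its other probe. Txn1, the cytosolic thioredoxin, was 3.05 ± 0.23 higher, and Gstp1, which joins glutathione to foreign compounds, 1.88 ± 0.18. The mitochondrial Glrx5 and Txnrd2 were lower by the ratio (-6.09 ± 0.40 and -6.53 ± 0.29), with calls lost after median centring. The other probes of Txnrd2 gave only -2.11 to -1.62.

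In DNA replication 3 of 11 bright members were higher in all 6 scalings. Pcna, the sliding clamp of DNA polymerases, lay at -0.32, -0.09 and -0.26 in blood and at 3.21, 1.41 and 3.02 in the TIC fraction (2.77 ± 0.40, limma adjusted p = 0.000362). Rfc2, of the clamp loader, was 1.09 ± 0.14 higher. Psrc1, a spindle protein, stayed near background on all day 10 blood arrays, which leaves its difference of uncertain size: 4.58 ± 0.11 in the ratio and 4.94 in Cy5, with 1.15 to 2.56 at its other probes. Lig1, the replicative ligase, was lower by the ratio (-7.68 ± 0.49) but not called after median centring. Among apoptosis regulators 3 of 15 were higher in all 6 scalings, including Birc5, which also serves in cell division (2.55 ± 0.24), and the mitochondrial protease Htra2 (1.98 ± 0.14). Bcl2l1, which protects cells from death, was lower by the ratio (-5.63 ± 0.40), a call lost after median centring.

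Red cell genes were lower in the TIC fraction. Of 11 bright erythroid markers 10 were lower by the ratio and 7 in all 6 scalings, against 58.8% and 3.74% of all bright genes. Alas2, the red cell enzyme of the opening step of haem synthesis, lay at 1.52, 1.48 and 2.36 in blood and at -10.69, -8.41 and -9.97 in the TIC fraction. Its difference was -11.47 ± 0.61 in the ratio (limma adjusted p = 1.98e-06) and -6.57 in Cy5 alone. Slc4a1, the anion exchanger of the red cell membrane, lay at 0.38, 0.90 and 1.31 in blood and at -9.44, -7.93 and -8.96 in the TIC fraction (-9.64 ± 0.41, limma adjusted p = 9.28e-07). No array of the TIC fraction came near the blood values of these genes. The size of such falls depended on the scaling: with median centring Alas2 differed by -3.14 and Slc4a1 by -2.87.

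The other falls covered the membrane skeleton, globin and transcription. Epb41, which links the skeleton to the membrane, differed by -10.87 ± 0.47 in the ratio and -6.70 in Cy5, with -7.46 to -4.18 at its other probes. Hbb-y, an embryonic globin whose probe may also read other globins, differed by -11.81 ± 0.24 and -7.55. Kel, a blood group protein, differed by -5.63 ± 0.27 and -3.36. Nfe2, a transcription factor of red cells and platelets, differed by -5.04 ± 0.17.

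Iron and haem handling had both directions, with 5 of 23 bright members lower and 2 higher in all 6 scalings. Fech, which places the iron into haem, differed by -11.16 ± 0.48 in the ratio, -7.01 in Cy5 and -4.65 with median centring. Slc25a37, which brings iron into the mitochondrion, differed by -11.97 ± 0.84, -7.26 and -4.35, with -5.67 in the ratio at its other probe. Isca1, of iron-sulphur cluster assembly, differed by -12.21 ± 0.66, -7.57 and -4.89. The rises were Alad, the haem enzyme that acts right after the Alas step, and Pcbp1, an iron chaperone. Alad lay at 0.34, 0.55 and 0.44 in blood and at 2.43, 2.73 and 2.25 in the TIC fraction (2.03 ± 0.20, limma adjusted p = 3.32e-05). Pcbp1 was 1.93 ± 0.29 higher, with 1.60 at its other probe. Haem synthesis genes thus did not move as 1 block: Alas2 and Fech were lower and Alad was higher.

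Upstream sequences are shown for 2 of the lower red cell genes, with the letters AGATAA or their reverse complement, the core bound by GATA factors of the red cell lineage, in capitals. The windows are the 200 bases before the start (RefSeq, GRCm38.p6) of Alas2 (chrX:150547217-150547416) and Trim10 (chr17:36869374-36869573), both on the plus strand.
Alas2: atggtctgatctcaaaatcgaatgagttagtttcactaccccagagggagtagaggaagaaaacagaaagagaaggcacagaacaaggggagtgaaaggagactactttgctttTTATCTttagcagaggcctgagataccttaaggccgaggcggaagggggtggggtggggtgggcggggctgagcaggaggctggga
Trim10: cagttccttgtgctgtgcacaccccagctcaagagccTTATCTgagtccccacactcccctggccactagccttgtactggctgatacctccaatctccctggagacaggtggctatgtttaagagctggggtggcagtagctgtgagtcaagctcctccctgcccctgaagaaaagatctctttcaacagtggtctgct
On both strands, these letters were in 2561 of 32851 windows (7.80%). They were in 3 of the 6 red cell and haem genes lower in all 6 scalings that had a sequence, of 11 such genes. These were again counted by gene and not by window, and are too few to give a share. The other of the 3 was Kel.

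Platelet genes were lower as plainly. Of 10 bright platelet markers 10 were lower by the ratio and 7 in all 6 scalings, against 58.8% and 3.74% of all bright genes. Ppbp, a platelet chemokine, lay at 2.28, 1.56 and 1.25 in blood and at -8.07, -7.74 and -7.80 in the TIC fraction (-9.57 ± 0.27, limma adjusted p = 3.55e-07; -6.19 in Cy5). Nrgn, a calmodulin-binding protein present in platelets, differed by -8.30 ± 0.30, and Myl9, the myosin light chain of platelets and smooth muscle, by -9.22 ± 0.35. In the coagulation list 2 of 5 bright members were lower in all 6 scalings. They were Vwf (-7.06 ± 0.32, and -4.78 at its other probe), the adhesive factor stored in platelets and vessel walls, and F13a1 (-5.10 ± 0.25), which cross-links fibrin. Gng11, a G protein subunit of platelets, was lower by -8.34 ± 0.29 in the ratio but lost its call after median centring.

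Further genes lower in all 6 scalings had other roles. They included Slc38a5, an amino acid carrier (-7.42 ± 0.26), Rsad2, an interferon-induced antiviral enzyme (-10.81 ± 0.51), and Ctse, an aspartic protease (-5.69 ± 0.25). Among the deepest were Fam220a (-11.72 ± 0.39), Ctla2a, a cysteine protease inhibitor (-11.27 ± 0.28), and Fchsd1, an actin regulator (-11.15 ± 0.35). With median centring they differed by -3.79, -4.19 and -4.53, and Rsad2 by -3.97. Bcor, a corepressor, differed by -10.65 ± 0.50 at the probe used but by -0.57 at its other probe. Fhl1, of the cytoskeleton, was above background on all day 10 blood arrays and on no TIC array, with a difference of uncertain size (-9.13 ± 0.30 in the ratio and -5.98 in Cy5).

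Markers of the labelled cell type gave a mixed picture. Of 17 bright pan-leukocyte genes, the ratio called 14 lower, against 58.8% of all bright genes. Ptprc, the common leukocyte antigen CD45, lay at 0.73, 0.87 and 0.30 in blood and at -3.21, -1.55 and -3.45 in the TIC fraction (-3.37 ± 0.46, limma adjusted p = 0.000241), but it was above background on every TIC array. Its 3 other probes gave smaller differences, -1.84 to -0.49. In all 6 scalings 0 of its list's 17 bright members were called either way in limma, and 0 at an unadjusted p under 0.05. With median centring the list's median was 1.98, which left little room for calls of lower. The calls of white cell genes thus depended on the scaling: Ptprc was not called with Cy5 at its 75th percentile. The median of the pan-leukocyte list still lay below that of all bright genes in each scaling. It was -1.98 against -1.0 in the loess ratio and 0.78 against 1.03 with Cy5 at its 75th percentile.

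Macrophage genes were mixed. Of 7 bright members 1 was higher and 2 lower by the ratio, and the same 1, Apoe, was higher in all 6 scalings, near the share over all bright genes. Of 21 tested, 10 were above background on all TIC arrays and on no day 10 blood array, near the 46.9% of all genes tested. Among these, C1qc, a chain of the complement starter C1q made by macrophages, differed by 1.95 ± 0.20 in the ratio and 4.73 in Cy5. Aif1, a calcium-binding protein of macrophages, differed by 1.98 ± 0.12 and 4.03. These sizes are uncertain, as day 10 blood had no signal above background. Apoe, a lipid carrier made by macrophages and by liver cells, lay at -0.80, -0.61 and -0.91 in blood and at 1.29, 1.82 and 0.90 in the TIC fraction (2.11 ± 0.24, limma adjusted p = 8.42e-05; 5.03 in Cy5). Other macrophage genes were not called by the ratio: Cd68 at 0.08 ± 0.15 (limma adjusted p = 0.648), the growth factor receptor Csf1r at -0.54 ± 0.25 (limma adjusted p = 0.0825) and C1qb at 0.06 ± 0.38 (limma adjusted p = 0.892), and their groups overlapped. Cd68 was not above background on any day 10 blood array and was 1.27 higher in Cy5 (limma adjusted p = 0.00102). Both Cd68 and Aif1 were above background on all 3 day 0 blood arrays. Csf1r and C1qb were called higher only in the median-centred ratio and with Cy5 at its 75th percentile. For Csf1r leaving out the TIC array of mouse 833 brought a call of lower.

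Neutrophil genes were lower by the ratio for 9 of 12 bright members, against 58.8% of all bright genes. S100a8, an abundant neutrophil protein, lay at 3.98, 3.56 and 3.41 in blood and at -0.78, -1.53 and -1.53 in the TIC fraction (-4.93 ± 0.22, limma adjusted p = 1.11e-06), a call lost after median centring. Its partner S100a9 differed by -5.52 ± 0.29 in the ratio and by -2.38 in Cy5. Relative to the median of all genes tested, its direction turned with median centring and with Cy5 at its 75th percentile, without a call in either. In all 6 scalings 0 of 12 bright neutrophil members were called in limma, and 0 at an unadjusted p under 0.05. With median centring their median was 1.31, which left little room for calls of lower. All 6 bright B cell genes were lower by the ratio, against the same 58.8%. Among them Cd79b of the B cell receptor (-6.64 ± 0.42) was lower in all 6 scalings. Cd3e of the T cell receptor complex (-2.84 ± 0.18) and the chemokine Ccl5 (-3.87 ± 0.49) were lower by the ratio, and each lost its call in another scaling.

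Genes of liver and hepatoma cells were present in the TIC fraction. Of 20 tested among 26 listed, 13 were above background on all TIC arrays and on no day 10 blood array, against 46.9% of all genes tested. Such members could pass the filter through the TIC arrays alone, so this count is a description only. Of the 3 bright members 1 was higher and 2 were lower by the ratio. Afp, the fetal plasma protein made by many hepatomas, lay at 0.20, 0.09 and 0.13 in blood, where 1 of 3 arrays was above background, and at 5.15, 6.24 and 5.07 in the TIC fraction (5.35 ± 0.28, limma adjusted p = 1.72e-06). The next genes were near background in all day 10 blood samples, and their sizes are uncertain. Alb, which encodes albumin, differed by 3.67 ± 0.21 in the ratio and 5.91 in Cy5, and the retinol carrier Rbp4 by 3.07 ± 0.30 and 7.74. Igfbp1, a binder of insulin-like growth factors, differed by 4.66 ± 0.21 and 6.25, the epithelial keratin Krt18 by 3.55 ± 0.44 and 5.71, and Rhox5, a homeobox gene often active in tumour lines, by 3.40 ± 0.17 and 7.18. Ambp, a plasma protein precursor, was above background in both groups and 2.74 ± 0.20 higher. Ahsg, another liver plasma protein, was lower by the ratio (-3.51 ± 0.23), with no call after median centring. The part of these cells' RNA in the ribosomal, mitochondrial and secretory rises was not tested.

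Genes of connective tissue and of cell shape varied. Dcn, a matrix proteoglycan of fibroblasts, was not above background on any day 10 blood array and differed by 3.21 ± 0.17 in the ratio and 6.77 in Cy5, while its other probe gave 0.28 in the ratio. In the actin list 3 of 49 bright members were higher and 1 lower in all 6 scalings, both below the shares over all bright genes. Tmsb10, which binds actin monomers, was 2.86 ± 0.21 higher and the small GTPase Rhoc 1.64 ± 0.17. Among tubulins and filaments 3 of 17 were higher, with Tuba1a at 2.71 ± 0.17. Timp1, an inhibitor of matrix proteases, was 1.20 ± 0.23 higher with 0.29 at its other probe. The lysosomal proteases Ctsh and Ctsa were 1.80 ± 0.27 and 1.31 ± 0.20 higher, with 0.23 to 1.16 at the other probes of Ctsa. The lysosomal list as a whole had 4 of 31 higher and 1 lower. Cfp, the stabiliser of the complement convertase, was 2.01 ± 0.38 higher, a call lost with slide as a block. In the hypoxia list 1 of 7 was higher, Ddit4, a stress-induced brake on growth signalling (1.41 ± 0.12), while Car9 was lower by the ratio (-2.71 ± 0.22) with no call after median centring.

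Signalling lists showed falls that rested on the scaling. The ratio called 8 of 13 bright NF-kB and TNF genes and 11 of 19 bright MAP kinase genes lower, near the 58.8% of all bright genes. In all 6 scalings 0 of these were called in limma, and 0 at an unadjusted p under 0.05. With median centring the medians of the NF-kB and MAP kinase lists were 2.03 and 1.98, which left little room for calls of lower. Relative to the median of all bright genes, the lists of ribosomes, proteasome, secretion and respiration stayed above 0 in each scaling. The B cell, erythroid, platelet, iron, autophagy, pan-leukocyte and neutrophil lists stayed below 0 in each, while the actin list changed sign.

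**Figure D4:**
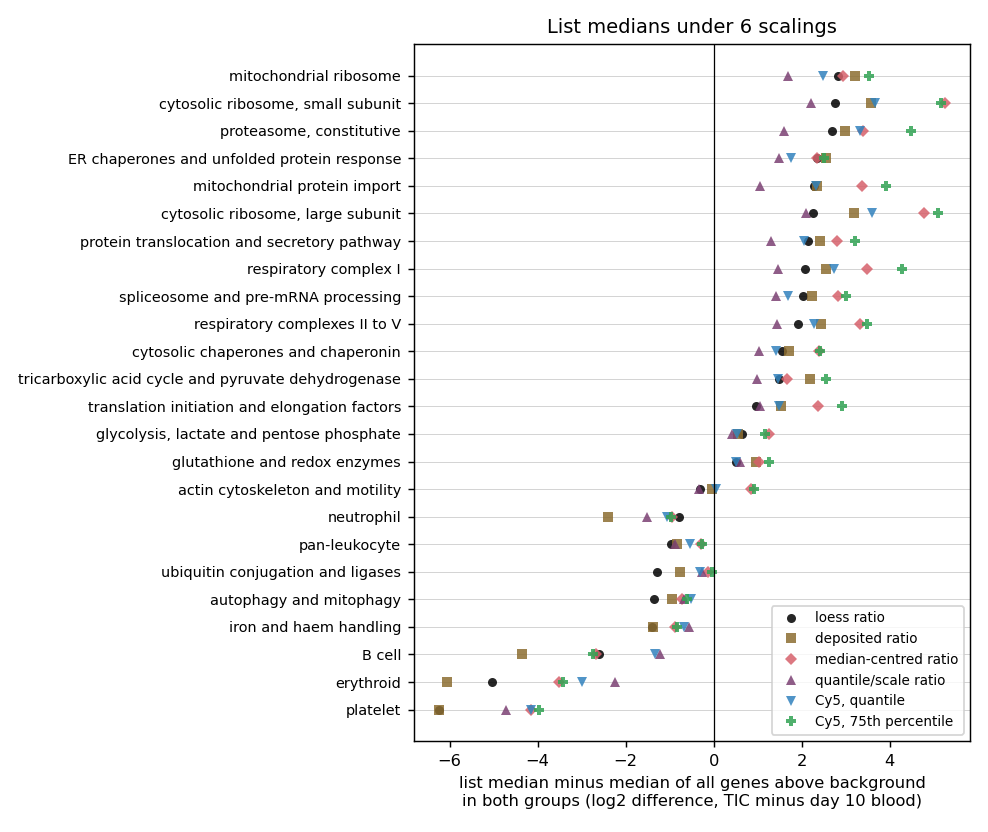
Each marker is the median log2 difference (TIC fraction minus day 10 blood) of a list's bright members minus the median of all bright genes, under 1 of 6 scalings. Lists from the mitochondrial ribosome down to redox enzymes lie above 0 in each scaling, the actin list straddles 0, and platelet and erythroid lists lie farthest below.

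The 3 TIC arrays were not equally alike. Over genes, which are not replicates, the log2 ratios of mice 832 and 834 correlated at 0.99, while mouse 833 correlated at 0.88 with mouse 832 and at 0.90 with mouse 834. In Cy5 the typical difference between mice 832 and 834 was 0.125 (median absolute deviation, log2), close to the 0.122 of their common Cy3 reference, while other pairs within a group differed by 0.323 to 0.539. Among the brightest probes the 2 arrays differed more in Cy5 (0.244) than in the reference (0.175), while other pairs within a group differed by 0.263 to 1.28 in Cy5. Because dye and slide differ too, this cannot show whether the 2 arrays share RNA, which was not tested. They were kept as separate samples, as titled. Averaged as 1 sample, they left 467 genes higher and 134 lower in all 6 scalings.

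Some genes set mouse 833 apart. Lars2, a mitochondrial transfer RNA synthetase gene, was at -6.97 and -6.22 in mice 832 and 834 and at -1.78 in mouse 833, and Eef1a1, the main elongation factor, at -2.79 and -2.20 against 1.23. Timp2, a protease inhibitor, was at -0.27 and -0.26 against 2.87, and Actg1, cytoplasmic actin, at -3.11 and -2.97 against 0.17. In the other direction Ifi202b, an interferon-induced gene, was at 4.22 and 3.42 against 1.21, and Ms4a6d, a membrane protein of myeloid cells, at 4.05 and 3.68 against 1.49. For Eef1a1, Timp2 and Actg1 the groups overlapped. Leaving out the TIC array of mouse 833 brought a call for Eef1a1, and the calls of Actg1 (-2.56 ± 0.79) and Ifi202b (2.40 ± 0.73) were lost without the TIC array of mouse 832 or of mouse 834; that of Actg1 was also lost without the day 10 blood of mouse 832.

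**Figure D5:**
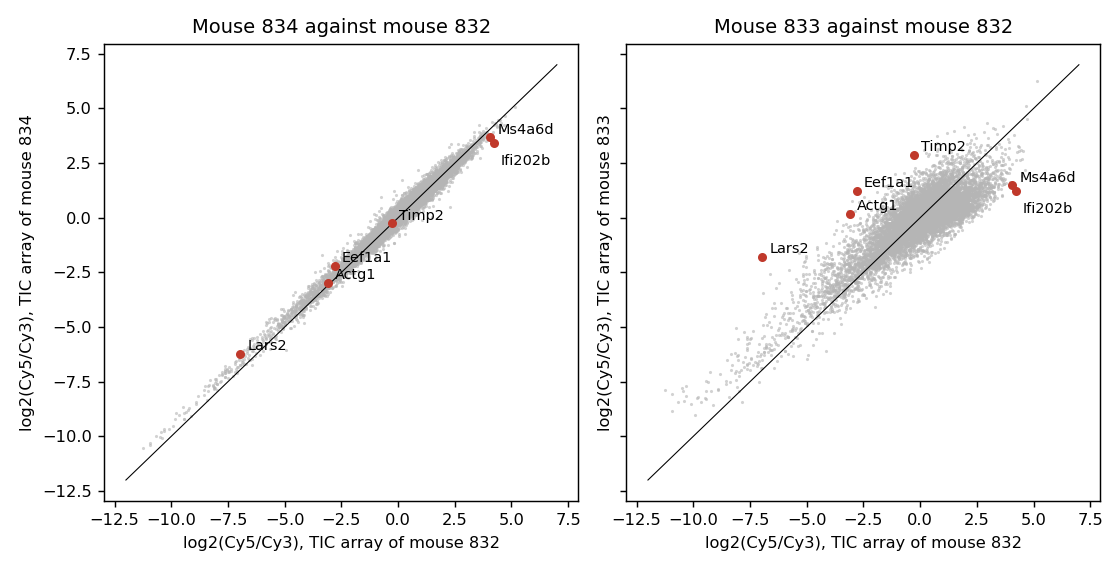
Each point is 1 of 12872 genes, with log2(Cy5/Cy3) on the TIC array of mouse 832 on the x axes and of mouse 834 (left) or mouse 833 (right) on the y axes, and the line marks equal values. Points hug the line for mouse 834 and scatter for mouse 833, with 6 genes named in red.

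The genes of the 2 directions also differed in length along the genome. The 546 higher genes included 56 ribosomal and nucleolar genes, and the part of these in the difference was not tested. The median span from start to end (RefSeq, GRCm38.p6) was 8.70 kb for 460 of the 546 higher genes that had one, 23.6 kb for 128 of the 146 lower genes and 17.2 kb for 3457 of the 3904 bright genes. This is a description, with no test.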

How the data were processed

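The members, gene lists and named genes were chosen with earlier results of these data known. The authors deposited scanner tables with spot intensity, local background and a log10 ratio per array, made with Agilent Feature Extraction 10.5.1.1 per the file headers (9.1.3.1 in the submitters' processing notes), and a value table whose log10 ratios were the same. Here intensities were background-corrected by normexp (offset 50), without spots of non-uniform background, and log2 Cy5/Cy3 ratios were normalized by loess within each array. Control spots and outliers had weight 0. Probes were kept if Cy5 exceeded background clearly on 3 or more of 9 arrays, and the brightest probe stood for a gene. Names came from RefSeq accessions for 23374 probes, current symbols for 6733 and synonyms for 2919; 8148 kept the file's name. Probe positions are mm8.

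Limma 3.58.1 (R 4.3.3) was fitted to all 9 arrays with group as the only term, and p-values were Benjamini-Hochberg adjusted (threshold 0.05). The fit was tested on simulated data. Named genes are those called the same way in ratio, in Cy5 and in all 3 mice with probes bright in both groups: the largest changes in Cy5 and up to 3 a list in each direction. Added to these are the largest bounds of genes above background in 1 group only (for most of those printed the bound exceeded the fitted fold, so it is not given) and the genes farthest apart on the TIC array of mouse 833. Of these, mostly genes called in all 6 scalings are printed; that criterion was added after the data were seen. Ptprc, Cd68, Csf1r, C1qb, Aif1, Afp, Rpl28, Rplp0 and Kel were named after their values were seen. Same-numbered samples come from the same mouse; the correlations of their deviations between TIC fraction and day 10 blood were -0.06, -0.01 and 0.06. The number of arrays, 3 a group, limits the precision.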

Additional observations from a re-analysis of the deposited data

How the results depend on the processing

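Over 25 alternatives, values of named genes are given relative to the median of all genes tested, which moved from 0.07 to 1.38 with median centring and to 0.85 in the deposited ratio. With slide as a block, 1498 genes were higher and 2776 lower (35.0% of calls higher), with 349 bright genes higher and 126 higher in all 6 scalings. Median centring gave 10274 higher and 463 lower (95.7% of calls higher, against 51.0%), and 2913 and 146 among bright genes. Cy5 at its 75th percentile gave 2063 and 917 among bright genes, and 69.2% of these calls were higher against 23.2%. In the deposited ratio 63.3% of calls were higher. Testing only bright probes gave 695 and 2302, and only probes above background in Cy3 gave 2728 higher and 5327 lower, with 33.9% of calls higher. Leaving out each array in turn gave 4052 to 5673 genes higher and 4274 to 5272 lower, 616 to 817 and 2145 to 2524 among bright genes, and 447 to 618 and 109 to 185 in all 6 scalings.

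Mouse as a replicate block gave 4736 higher and 4699 lower, and 546 and 155 in all 6 scalings; with day 10 arrays alone the block gave 3615 and 4169. The block moved no count of calls by over 1.5 times. Genes that turned direction did so with median centring and with Cy5 at its 75th percentile: Rpl21 (1.42 and 0.74), S100a9 (0.30 and 0.27), Actg1 (1.54 and 1.66), Psmd4 (2.33 and 2.43), Ndufa1 (1.94 and 1.91), Rplp0 (2.54 and 2.27) and Rpl28 (3.73 and 4.03). Of these, S100a9 was called in neither of the 2 scalings. Rpl28 also turned in Cy5 by quantile (0.45) and with only bright probes tested, where the median of the tested genes is lower (0.10). The cause was not tested. The low signal over background of day 10 blood limits what can be measured there.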
